A study of Mus musculus with 6 samples.

Results

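The SLC25 genes encode the mitochondrial carrier family, and their messenger RNAs were followed here in mouse oocytes with and without Lsd1. The members were taken as every deposited symbol made of Slc25a and a number, which gave 44 of the 23284 symbols counted. Carriers of this family sit mostly in the inner mitochondrial membrane and exchange small solutes between the cytosol and the matrix: ADP for ATP, phosphate, di- and tricarboxylates, amino acids, cofactors, carnitine esters and iron. Each is a small protein of repeated membrane modules that is imported without a cleaved presequence in most cases and held in cardiolipin-rich membrane. Oocytes rely on mitochondria for ATP, and the companion granulosa cells supply them with pyruvate and other substrates. The usual site of the family is not that of every member: the Slc25a17 protein lies in peroxisomes, and the Slc25a46 protein in the outer mitochondrial membrane. The symbol rule also leaves out relatives that carry other names, which are described after the members.

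Lsd1, encoded by Kdm1a, is a histone demethylase, and the study asked how its depletion changes gene expression in oocytes. The series holds 3 Lsd1 KO and 3 Control samples, each of 100 germinal vesicle oocytes, which still wait in meiotic prophase. All came from females of 4 to 6 weeks on a mixed C57BL/6 and 129 background, taken 48 h after 5 IU of pregnant mare serum gonadotrophin. The labels give the genotypes only as Lsd1 KO and Control: the driver of the deletion, the deleted exons and any pooling of females are not stated in the sources used. The cDNA was amplified before sequencing, and library totals were 10764095 to 12334683 counts in Lsd1 KO and 10735422 to 13035045 counts in Control. Levels are given as CPM, the counts scaled by TMM to a common library size, and a library with no count of a gene allows up to 0.226 to 0.277 CPM, taking 3 counts as the limit and counting error alone. Kdm1a held 47, 31 and 36 counts in Lsd1 KO against 799, 962 and 492 in Control, a level 19.4-fold lower (log2 fold change -4.28 ± 0.27 SE, edgeR quasi-likelihood adjusted p = 4.58e-06).

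Markers of the oocyte were abundant in all 6 samples, with the 14 listed genes summing to 35258 to 39593 CPM in Lsd1 KO against 24946 to 28500 CPM in Control. That gap came from Gdf9: without it the sums were 20776 to 23232 CPM in Lsd1 KO against 17930 to 22931 CPM in Control and overlapped. Of these 14, 2 rose (Gdf9 and Oosp1) and 1 fell (Mos), or 21.4%, against 21.3% of all genes tested. All 19 granulosa markers had counts, and they summed to 430 to 484 CPM in Lsd1 KO against 138 to 167 CPM in Control. Cyp19a1, the aromatase, made most of that gap, at 239 to 405 CPM in Lsd1 KO against 28.6 to 49.2 CPM in Control. Without it the sums were 79.2 to 190 CPM in Lsd1 KO against 106 to 118 CPM in Control. Of 14 granulosa markers tested, Cyp19a1, Inha and Gja1 rose and Nr5a2 fell, to 28.7 CPM in Lsd1 KO against 69.4 CPM in Control (28.6% called, against 21.3% of all genes). Nr5a2 was still in the sums that overlapped without Cyp19a1, so that overlap does not show that the other markers were alike. The median log2 fold change of the 14 was 1.33, against -0.01 over all genes tested, and only Nr5a2 and Kitl were below 0. The 9 theca and stroma markers summed to 8.75 to 13.4 CPM in Lsd1 KO against 1.39 to 2.26 CPM in Control, where Col3a1, Lum and Tcf21 had no count. The only one tested, Dcn, rose to 7.57 CPM in Lsd1 KO against 0.414 CPM in Control. Without it the sums overlapped, at 1.62 to 5.57 CPM in Lsd1 KO against 1.11 to 1.90 CPM in Control. Pdgfra, at 0.430 CPM in Lsd1 KO against 1.01 CPM in Control, was still in those sums. The 20 immune markers summed to 328, 49.1 and 246 CPM in Lsd1 KO samples 1 to 3 and to 78.2, 29.1 and 109 CPM in Control samples 1 to 3, and of 15 tested, 2 rose (H2-Aa and Cd68, 13.3%, against 21.3% of all genes). All 15 had an estimate above 0, with a median log2 fold change of 1.71, against -0.01 over all genes tested. Their SE ran from 0.30 (C1qb) to 1.24 (H2-Ab1). Sample 2 had the lowest sum of each genotype, but not every marker was near 0 there. Library Lsd1 KO 2 held no count of Ptprc, Tyrobp or C1qc, yet C1qb stood at 21.1 CPM, H2-Aa at 11.5, Laptm5 at 7.22 and Cd68 at 5.86. For Control 2 these values were 0.226 CPM for Ptprc, 16.9 for C1qb, 3.24 for H2-Aa, 4.22 for Laptm5 and 2.79 for Cd68. The sums of sample 2 thus do not follow Ptprc. Of the 6 blood markers, 5 had no count in any library.

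Most carriers were expressed in the oocyte, and a handful dominated. Per kilobase of exon, 12 members stood at 10 CPM or more in Control and 15 stood under 1. Slc25a31, the ADP/ATP translocase known from the mouse male germ line, had the highest level per length, at 96.0 ± 6.40 CPM per kb in Lsd1 KO against 92.7 ± 16.3 in Control (SD, n = 3 each). Slc25a5, a widely expressed ADP/ATP translocase, followed at 74.9 ± 9.67 CPM per kb in Lsd1 KO against 83.8 ± 9.14 in Control. Slc25a15, the ornithine carrier of the urea cycle, stood at 72.1 ± 8.68 CPM per kb in Lsd1 KO against 74.9 ± 13.3 in Control. These neighbours in the order of Control levels lay within their spread of one another. Lengths were all annotated exons joined: 1646 bases for Slc25a5, 1625 for Slc25a31 and 5550 for Slc25a3. The longest coding transcripts had 1240, 1625 and 1612 bases, so the order, including the top place, depends on the length used. Below them came the peroxisomal carrier Slc25a17 at 60.3 ± 2.07 CPM per kb in Lsd1 KO against 45.0 ± 13.2 in Control, and the translocase Slc25a4 at 33.6 ± 8.34 CPM per kb in Lsd1 KO against 43.5 ± 7.91 in Control. The 5 highest members of each library held 63.2 ± 1.09% of the summed level per length in Lsd1 KO and 62.7 ± 2.24% in Control. The fifth of them was Slc25a35 in all 3 Lsd1 KO libraries, at 39.6 ± 3.02 CPM per kb, where Control libraries had Slc25a4 among the 5 and Slc25a35 stood at 29.5 ± 10.2.

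The family as a whole took a like share of the counts in both genotypes. The 44 members together held 0.138 ± 0.00586% of all counts in Lsd1 KO and 0.136 ± 0.00339% in Control (SD, n = 3 each). Summed, they reached 1371 ± 23.8 CPM in Lsd1 KO against 1380 ± 48.1 CPM in Control. Per length the sum was 543 ± 13.8 CPM per kb in Lsd1 KO against 542 ± 30.5 in Control, so the genotypes differed by less than the spread between samples.

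**Figure D1:**
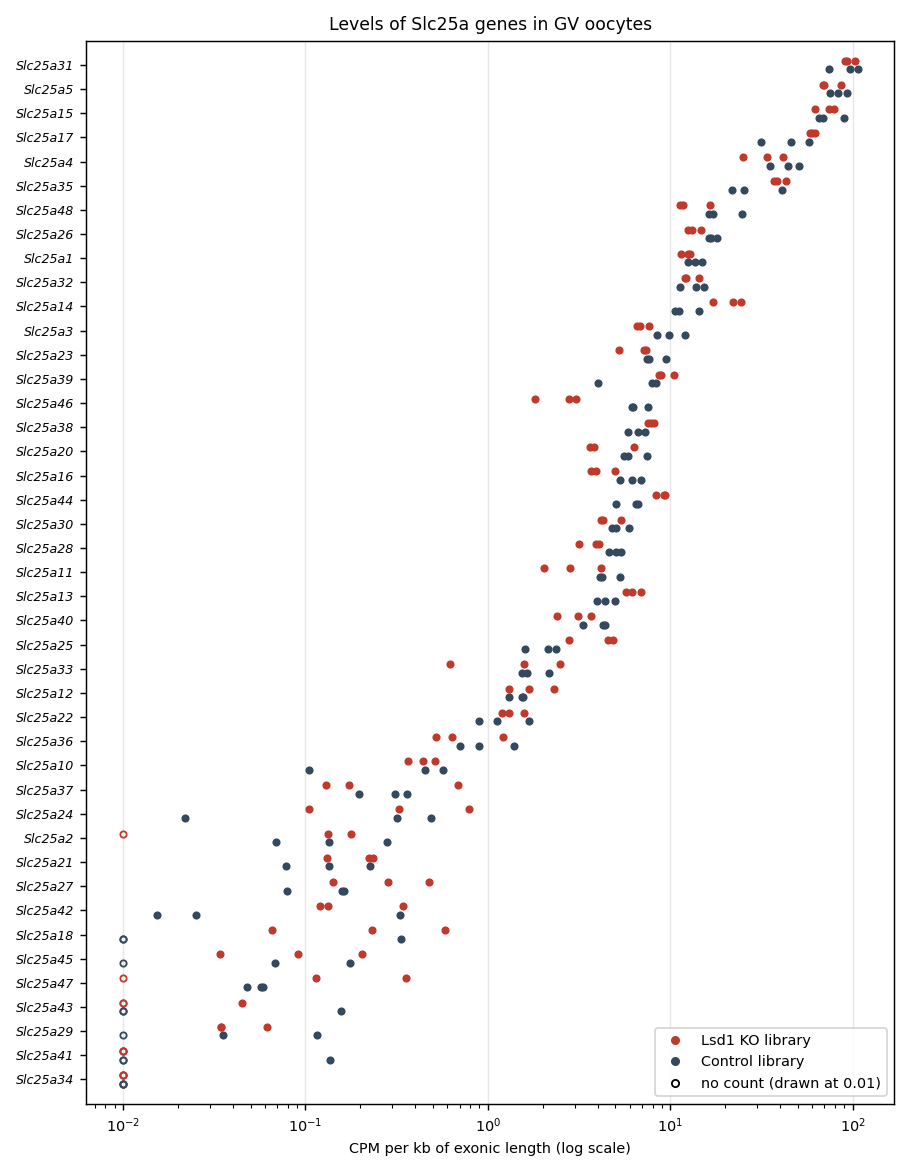
Level of Slc25a genes in CPM per kilobase of exon on a log axis, 1 point per library, with Lsd1 KO and Control in separate colours; a library with no count is an open point at the left edge. Slc25a31, Slc25a5 and Slc25a15 lie at the high end and the 10 genes too low to test, with the tested Slc25a21 among them, at the low end.

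The test could be run on 34 of the 44 members, those with enough counts among the 12935 genes tested. Of these 34, 3 passed an adjusted p of 0.05 (8.82%), against 21.3% of all genes tested. Slc25a14 and Slc25a25 rose (5.88%, against 11% of all genes) and Slc25a46 fell (2.94%, against 10.3%). Restricted to genes at a mean of 10 CPM or more, 3 of 22 members passed (13.6%), against 24.4% of 8158 genes. DESeq2 and limma-voom also called 2 members higher and 1 lower. An unadjusted edgeR p under 0.05 was found for 7 of the 34 members, against 4535 of all 12935 genes tested. The 3 samples of one genotype lay wholly above the 3 of the other for 13 of 34 members (38.2%), against 38.7% of all genes, and for 12 of the 22 at 10 CPM or more (54.5%), against 42.3%.

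Log2 fold changes of the members (Lsd1 KO over Control) centred close to 0. Their median was -0.06, against -0.01 over all genes tested, with 16 above 0 and 18 below. The median size of change was 0.38 for members and 0.44 for all genes, but among genes at 10 CPM or more it was 0.40 for members and 0.38 for all genes. Over all levels the median SE was 0.23 for members and 0.27 for all genes. Of the 31 members that did not pass, 17 had a 95% interval wholly inside a log2 fold change of ±1, and for the other 14 the interval reached a change of that size. Among those 31, 15 of the 19 at 10 CPM or more had such an interval, but 2 of the 12 at lower levels did. The unpassed estimates ran from -0.59 to 0.58.

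**Figure D2:**
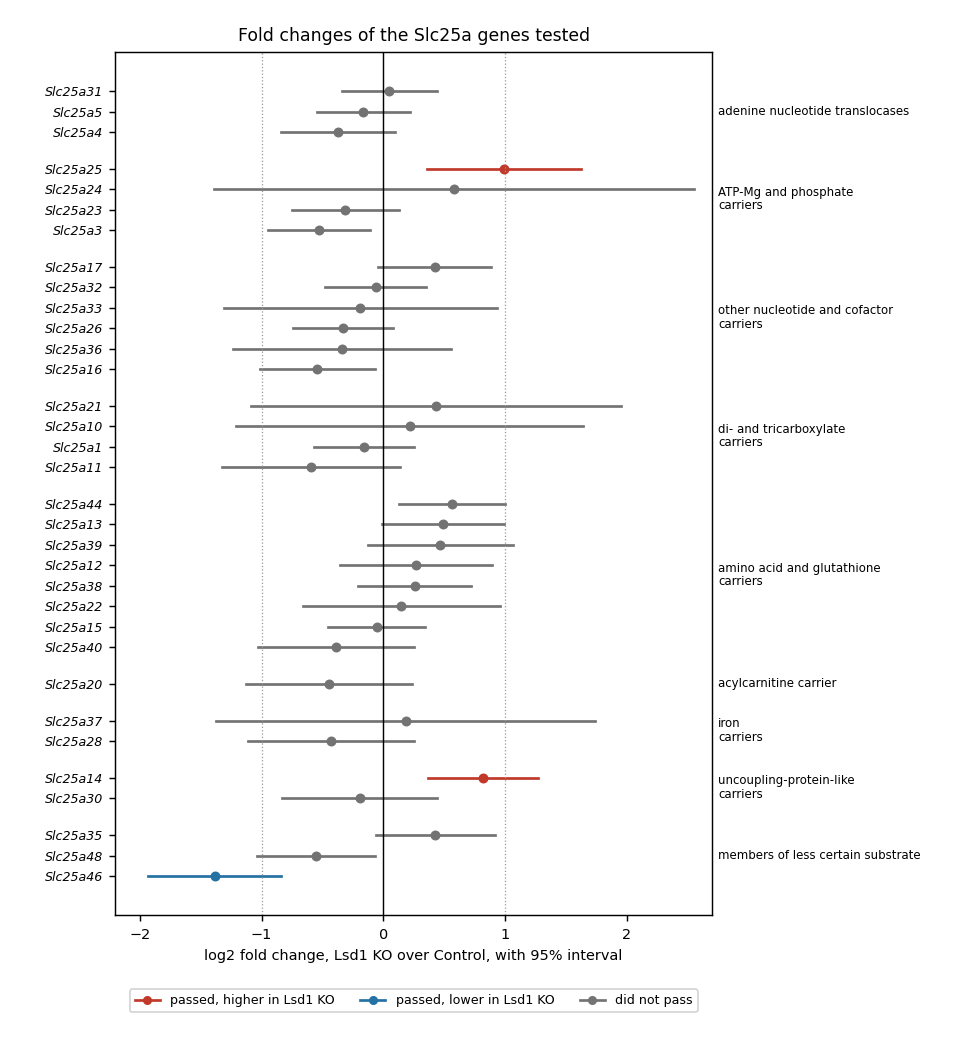
Log2 fold change (Lsd1 KO over Control) of tested Slc25a genes with 95% intervals, grouped by what the carriers transport, with dotted lines at -1 and 1. The genes that passed are Slc25a14 and Slc25a25 (red, higher) and Slc25a46 (blue, lower), and the widest intervals belong to genes of low count.

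Slc25a46 changed most among the members that passed. Its protein lies in the outer mitochondrial membrane and is known for a part in mitochondrial fission and in the shape of the inner membrane, not for a transported solute. It had 12.5, 8.12 and 13.6 CPM in Lsd1 KO against 27.6, 34.0 and 27.8 CPM in Control. All 3 Lsd1 KO samples lay below all 3 Control samples. The mean was 11.4 ± 2.89 CPM in Lsd1 KO against 29.8 ± 3.63 CPM in Control (SD, n = 3 each), a 2.61-fold lower level (log2 fold change -1.39 ± 0.25 SE, 95% interval -1.93 to -0.84, edgeR adjusted p = 0.00280). The counts behind it were 156, 90 and 151 in Lsd1 KO against 298, 451 and 308 in Control. Among the members ordered by level per length, Slc25a46 stood at place 26 in Lsd1 KO and 16 in Control. In bulk samples such as these, less RNA per cell and fewer cells that hold it cannot be told apart. It passed with each of the 6 libraries left out in turn (edgeR adjusted p 0.00482 to 0.0148). In the library of each genotype lowest in immune markers, Slc25a46 had 8.12 CPM in Lsd1 KO 2 against 34.0 CPM in Control 2. With the immune marker sum as a covariate, a setting chosen after seeing the data, its log2 fold change was -1.56 (edgeR adjusted p = 0.0116). A contrast of 1 library per genotype, here and below, cannot test the part of immune cells. The granulosa and theca marker sums did not overlap between genotypes. Without Cyp19a1 and Dcn they overlapped, with Nr5a2 and Pdgfra, both higher in Control, still summed. That overlap does not show that the other markers were alike. The part of those markers in this and the next results was not tested. In mm9 Slc25a46 occupies bases 31739822 to 31770183 of chromosome 18 on the minus strand, and 471 of its exonic bases are overlapped by the opposite-strand transcript B930094E09Rik. That transcript is not among the symbols counted, so its level is unknown here. The sources used here do not state whether reads were counted by strand.

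Slc25a14 rose in Lsd1 KO oocytes. It encodes a carrier of the uncoupling protein branch, also called UCP5 or brain mitochondrial carrier protein. It had 57.8, 52.0 and 40.6 CPM in Lsd1 KO against 26.3, 25.2 and 33.9 CPM in Control. The groups did not overlap, and the nearest samples were Lsd1 KO 3 and Control 3. The mean was 50.1 ± 8.77 CPM in Lsd1 KO against 28.5 ± 4.72 CPM in Control (SD, n = 3 each), 1.76-fold higher (log2 fold change 0.82 ± 0.21 SE, 95% interval 0.37 to 1.27, edgeR adjusted p = 0.0152). The call was lost without Lsd1 KO 1 (adjusted p = 0.0666), without Control 1 (0.0663) and without Control 2 (0.0601). With the immune covariate the log2 fold change was 0.76 (edgeR adjusted p = 0.0649), and in the libraries lowest in those markers Slc25a14 had 52.0 CPM in Lsd1 KO 2 against 25.2 CPM in Control 2. In mm9 it occupies bases 45976590 to 46015471 of chromosome X on the plus strand.

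Slc25a25 rose as well. It encodes a calcium-regulated carrier that exchanges ATP-Mg for phosphate, and so sets the adenine nucleotide pool of the matrix. It had 21.0, 13.0 and 22.4 CPM in Lsd1 KO against 9.90, 11.0 and 7.41 CPM in Control. The groups did not overlap, but Lsd1 KO 2 lay close to the highest Control sample. The mean was 18.8 ± 5.09 CPM in Lsd1 KO against 9.43 ± 1.84 CPM in Control (SD, n = 3 each), 1.99-fold higher (log2 fold change 0.99 ± 0.29 SE, 95% interval 0.36 to 1.63, edgeR adjusted p = 0.0291). This call rested on single libraries: adjusted p was 0.0976 without Lsd1 KO 1, 0.104 without Lsd1 KO 3, 0.0759 without Control 1 and 0.0685 without Control 3. Among Lsd1 KO samples, sample 2 was lowest in both Slc25a25 and the immune marker sum, while among Control samples it was highest in Slc25a25 and lowest in that sum. In the libraries lowest in those markers Slc25a25 had 13.0 CPM in Lsd1 KO 2 against 11.0 CPM in Control 2, and with the covariate its log2 fold change was 0.80 (edgeR adjusted p = 0.193). In mm9 it occupies bases 32270007 to 32306965 of chromosome 2 on the minus strand. The gene Naif1 overlaps 379 of its exonic bases on the opposite strand, at 0.433 CPM in Lsd1 KO against 1.38 CPM in Control.

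**Figure D3:**
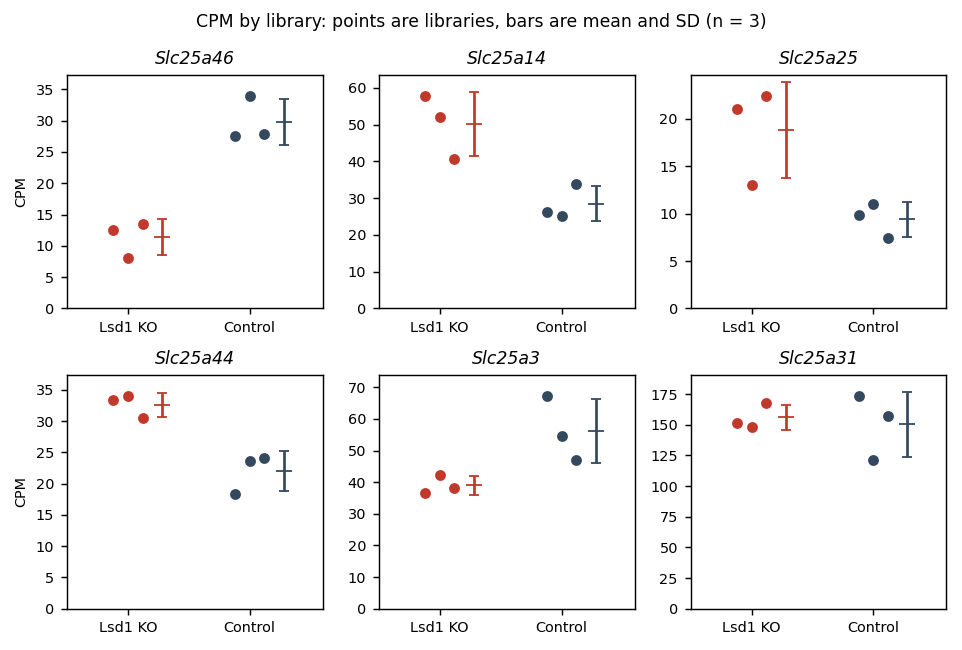
CPM in each library (points) with the group mean and SD (bars) for 6 Slc25a genes, Lsd1 KO left of Control and each panel from 0. Slc25a46 is lower in all 3 Lsd1 KO samples, Slc25a14 and Slc25a25 are higher, Slc25a44 is higher and Slc25a3 lower without passing the test, and the groups of Slc25a31 overlap.

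The promoters of the pair that rose are shown so that their composition can be compared. RefSeq windows on GRCm38.p6 ran from 250 bases before to 50 after the start lying farthest upstream, 300 bases in all, and are printed 5′ to 3′ on the gene's strand. Capitals mark matches, on either strand, to the motifs named below. The Slc25a14 window is chrX:48623198-48623497 on the plus strand and that of Slc25a25 is chr2:32451421-32451720 on the minus strand.
Slc25a14: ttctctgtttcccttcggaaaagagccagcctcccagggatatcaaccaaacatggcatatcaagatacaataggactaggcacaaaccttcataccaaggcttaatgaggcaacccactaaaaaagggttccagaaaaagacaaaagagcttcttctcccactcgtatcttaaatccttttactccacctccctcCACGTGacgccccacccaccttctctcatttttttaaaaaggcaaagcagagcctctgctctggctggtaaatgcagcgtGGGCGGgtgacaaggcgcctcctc
Slc25a25: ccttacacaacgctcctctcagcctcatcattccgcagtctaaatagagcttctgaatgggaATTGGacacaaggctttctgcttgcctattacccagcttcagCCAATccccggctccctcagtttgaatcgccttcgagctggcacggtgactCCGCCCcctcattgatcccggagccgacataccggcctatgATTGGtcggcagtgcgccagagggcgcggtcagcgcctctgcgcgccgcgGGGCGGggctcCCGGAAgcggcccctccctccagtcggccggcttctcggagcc
The Slc25a14 window held 1 E-box (CACGTG), found in 7.15% of 32851 promoter windows, and 1 GC box (GGGCGG), found in 35.7%. The Slc25a25 window held 2 GC boxes, 3 CCAAT boxes (CCAAT, in 37.4% of windows) and 1 ETS match (CCGGAA, in 14.9%). The matches in each window did not overlap one another. Both windows held a GC box, and no other searched motif was shared. The ratio of observed to expected CpG was 0.424 for Slc25a14 and 0.860 for Slc25a25. Each of these genes had 3 RefSeq windows, of which only 1 is described, and the start used in oocytes was not tested. A match is a string of letters and not a measured binding site.

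None of the 3 ADP/ATP translocases, which export the ATP made in the matrix, passed the test. Slc25a31 had 152, 148 and 168 CPM in Lsd1 KO against 173, 121 and 157 CPM in Control. The groups overlapped, and both extremes came from Control samples. The log2 fold change was 0.05 ± 0.18 SE (95% interval -0.34 to 0.44, edgeR adjusted p = 0.864). Slc25a5 averaged 123 ± 15.9 CPM in Lsd1 KO against 138 ± 15.0 CPM in Control (SD, n = 3 each), with an interval of -0.54 to 0.22. Slc25a4, the translocase of heart and muscle, averaged 79.1 ± 19.6 CPM in Lsd1 KO against 102 ± 18.6 CPM in Control, with an interval of -0.84 to 0.10. By edgeR, DESeq2 and limma-voom the count of calls was 0 of 3, and 0 of 3 had an unadjusted p under 0.05. With 21.3% of all genes tested called by edgeR, 0 of 3 says little.

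The 3 translocases share one transport reaction, so their make-up per length was also compared. Slc25a31 gave 49.8, 46.9 and 44.7% of their summed level per length in Lsd1 KO and 42.5, 38.7 and 44.7% in Control. Lsd1 KO 3 and Control 3 were nearly equal, and the other samples of Lsd1 KO lay above the other samples of Control. Slc25a5 gave 36.6 ± 0.800% in Lsd1 KO and 38.3 ± 4.18% in Control, and Slc25a4 gave 16.3 ± 2.53% in Lsd1 KO and 19.7 ± 1.22% in Control (SD, n = 3 each). The summed level was 204 ± 23.4 CPM per kb in Lsd1 KO against 220 ± 29.4 in Control. Joined exons of Slc25a4 and Slc25a5 total 2353 and 1646 bases, but their longest coding transcripts 1925 and 1240. The shares depend on that choice of length.

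**Figure D4:**
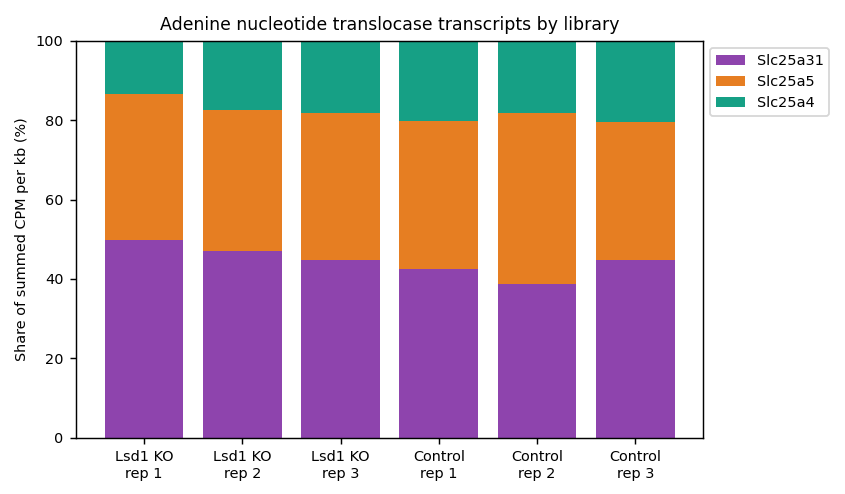
Share of Slc25a31, Slc25a5 and Slc25a4 in the summed level per length of the 3 ADP/ATP translocases, in percent, 1 stacked bar per library with Lsd1 KO left of Control. Slc25a31 is the largest share in all libraries but Control 2, where Slc25a5 holds 42.9% and Slc25a31 holds 38.7%. Lengths are joined exons, on which this order depends.

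Phosphate enters the matrix through Slc25a3, the partner of the translocases in ATP synthesis, which was the member nearest to the threshold among those lower without passing. It had 36.7, 42.3 and 38.1 CPM in Lsd1 KO against 67.2, 54.5 and 47.1 CPM in Control. The groups did not overlap, with Lsd1 KO 2 and Control 3 the nearest. The log2 fold change was -0.53 ± 0.19 SE (95% interval -0.94 to -0.11, edgeR adjusted p = 0.0685). Without Control 3 it passed, at -0.65 (adjusted p = 0.0333). Of the 6 fits with a library left out, only that 1 passed, and edgeR adjusted p reached 0.236. Of the other ATP-Mg carriers, Slc25a23 averaged 34.9 ± 6.24 CPM in Lsd1 KO against 43.4 ± 5.83 CPM in Control (SD, n = 3 each), its highest Lsd1 KO sample at 39.0 CPM and its lowest Control sample at 39.3 CPM. Slc25a24 had 1.12, 0.361 and 2.69 CPM in Lsd1 KO and 1.66, 0.0753 and 1.08 CPM in Control, with overlap. Of the 4 tested carriers of ATP-Mg and phosphate, 1 rose (Slc25a25) and 3 did not pass, where 21.3% of all genes tested passed.

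Of the 7 tested carriers of other nucleotides and cofactors, none passed by edgeR, DESeq2 or limma-voom, and 1 had an unadjusted p under 0.05. The edgeR share over all genes tested was 21.3%. The most abundant per length was Slc25a17, which carries coenzyme A and nucleotides across the peroxisomal membrane. It had 104, 97.5 and 99.8 CPM in Lsd1 KO against 76.6, 52.3 and 96.4 CPM in Control. The groups did not overlap, but Control 3 lay next to the lowest Lsd1 KO sample. Its log2 fold change was 0.42 ± 0.21 SE (95% interval -0.04 to 0.89, edgeR adjusted p = 0.182), and without Control 3 it was 0.63 (adjusted p = 0.0497). Of the 6 fits with a library left out, only that 1 passed, and edgeR adjusted p reached 0.490. Slc25a16, linked to coenzyme A in the matrix, averaged 20.1 ± 3.37 CPM in Lsd1 KO against 29.3 ± 3.95 CPM in Control (edgeR adjusted p = 0.0955). Slc25a26, which imports the methyl donor S-adenosylmethionine, averaged 25.9 ± 2.31 CPM in Lsd1 KO against 32.5 ± 1.79 CPM in Control (edgeR adjusted p = 0.238). The folate carrier Slc25a32 averaged 37.9 ± 3.79 CPM in Lsd1 KO against 39.6 ± 5.92 CPM in Control. The pyrimidine nucleotide carriers were low: Slc25a36 averaged 5.37 ± 2.53 CPM in Lsd1 KO against 6.77 ± 2.38 CPM in Control, and Slc25a33 averaged 2.94 CPM in Lsd1 KO against 3.35 CPM in Control.

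The 4 carriers of di- and tricarboxylates gave 0 calls by edgeR, DESeq2 and limma-voom and 0 unadjusted p under 0.05. Beside the 21.3% of all genes tested that edgeR called, 0 of 4 says little. Slc25a1, which exports citrate for acetyl groups in the cytosol, was the most abundant per length. It had 27.4, 27.8 and 24.9 CPM in Lsd1 KO against 32.6, 27.2 and 29.6 CPM in Control. The groups overlapped (log2 fold change -0.16 ± 0.19 SE, 95% interval -0.57 to 0.25, edgeR adjusted p = 0.592). Slc25a11, the oxoglutarate carrier of the malate-aspartate shuttle, averaged 6.41 ± 2.30 CPM in Lsd1 KO against 9.67 ± 1.40 CPM in Control, with an interval of -1.33 to 0.14. Slc25a10, a dicarboxylate carrier, averaged 1.52 CPM in Lsd1 KO against 1.30 CPM in Control, and Slc25a21, an oxodicarboxylate carrier, averaged 0.944 CPM in Lsd1 KO against 0.703 CPM in Control.

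Of the 8 tested carriers of amino acids and glutathione, 6 had an estimate above 0. None of the 8 passed by edgeR, DESeq2 or limma-voom, where edgeR called 21.3% of all genes tested. The only member of this role with an unadjusted p under 0.05 was Slc25a44, a carrier of branched-chain amino acids. It was also the member nearest to the threshold among those higher without passing. It had 33.4, 34.0 and 30.4 CPM in Lsd1 KO against 18.3, 23.7 and 24.0 CPM in Control. All 3 Lsd1 KO samples lay above all 3 Control samples. The log2 fold change was 0.57 ± 0.20 SE (95% interval 0.13 to 1.00, edgeR adjusted p = 0.0619). It passed under upper-quartile scaling (0.61, adjusted p = 0.0435), under scaling to library totals (0.60, 0.0490) and with a filter of 10 CPM in 3 libraries (0.63, 0.0314). With each library left out in turn it passed in 0 of 6 fits (edgeR adjusted p 0.0638 to 0.209).

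Slc25a15, the most abundant of these by length, had 274, 257 and 216 CPM in Lsd1 KO against 238, 311 and 226 CPM in Control. The groups overlapped (log2 fold change -0.05 ± 0.19 SE, 95% interval -0.46 to 0.35, edgeR adjusted p = 0.859). The aspartate and glutamate exchangers of the malate-aspartate shuttle are Slc25a13, or citrin, and Slc25a12, or aralar. Slc25a13 averaged 19.6 ± 1.90 CPM in Lsd1 KO against 14.0 ± 1.59 CPM in Control (edgeR adjusted p = 0.152) with no overlap, and Slc25a12 averaged 13.0 ± 3.65 CPM in Lsd1 KO against 10.8 ± 0.977 CPM in Control, with overlap. The glutathione carrier Slc25a39 had 24.7, 29.0 and 24.0 CPM in Lsd1 KO against 22.9, 22.0 and 11.1 CPM in Control, where Control 3 stood apart from the rest. Its relative Slc25a40 averaged 8.50 ± 1.78 CPM in Lsd1 KO against 11.1 ± 1.65 CPM in Control. Slc25a38, the glycine carrier that feeds haem synthesis, averaged 21.6 ± 0.850 CPM in Lsd1 KO against 18.1 ± 1.92 CPM in Control. The glutamate carrier Slc25a22 averaged 5.50 ± 0.817 CPM in Lsd1 KO against 4.97 ± 1.63 CPM in Control.

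Fatty acid, iron and the remaining uncoupling-like carriers gave no call besides Slc25a14. Since 21.3% of all genes tested passed, no call among so few genes says little. Slc25a20, which passes acylcarnitines into the matrix for fatty acid oxidation, had 11.3, 6.49 and 6.82 CPM in Lsd1 KO against 13.2, 10.5 and 9.94 CPM in Control. Lsd1 KO 1 lay among the Control samples (log2 fold change -0.45 ± 0.32 SE, 95% interval -1.13 to 0.24, edgeR adjusted p = 0.340). Slc25a28, or mitoferrin 2, which imports iron outside the red cell lineage, had 6.17, 5.95 and 4.76 CPM in Lsd1 KO against 7.03, 7.61 and 8.13 CPM in Control. The groups did not overlap, but the log2 fold change was -0.43 ± 0.31 SE (95% interval -1.11 to 0.25, edgeR adjusted p = 0.359). Slc25a37, the mitoferrin of red cell precursors, averaged 1.38 ± 1.30 CPM in Lsd1 KO against 1.20 ± 0.355 CPM in Control. Of the uncoupling-protein-like genes other than Slc25a14, Slc25a30 averaged 7.85 ± 1.13 CPM in Lsd1 KO against 8.97 ± 0.990 CPM in Control and Slc25a27 was too low to test.

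Among members whose substrate is less certain, Slc25a35 was the most abundant per length. It had 142, 137 and 158 CPM in Lsd1 KO against 80.2, 93.9 and 151 CPM in Control. Control 3 lay among the Lsd1 KO samples and the other Control samples lay well below (log2 fold change 0.43 ± 0.23 SE, 95% interval -0.06 to 0.91, edgeR adjusted p = 0.198). Without Control 3 it passed, at 0.73 (adjusted p = 0.0174), as the only 1 of 6 fits with a library left out (edgeR adjusted p up to 0.543). Its exons share 1151 bases with Rangrf on the opposite strand, a gene with means of 6.30 CPM in Lsd1 KO against 4.80 CPM in Control. Slc25a48 averaged 44.6 ± 9.82 CPM in Lsd1 KO against 65.5 ± 15.7 CPM in Control (log2 fold change -0.55 ± 0.22 SE, edgeR adjusted p = 0.0969) and passed without Lsd1 KO 2, at -0.77 (adjusted p = 0.0417). Of the 6 fits with a library left out, only that 1 passed, and edgeR adjusted p reached 0.318.

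The 10 members too low to test were Slc25a2, Slc25a18, Slc25a27, Slc25a29, Slc25a34, Slc25a41, Slc25a42, Slc25a43, Slc25a45 and Slc25a47. Slc25a34 had no count in any library. The others held at most 66 counts over the 6 libraries, and the highest mean of a genotype was 1.20 CPM. That highest gene was Slc25a42, a coenzyme A carrier, with 10, 8 and 23 counts in Lsd1 KO against 1, 2 and 22 in Control. Its Control counts came almost all from Control 3. In this gene, and in Slc25a12, Slc25a35 and Slc25a36, stretches of the transcript match another place in NCBIM37, the assembly of mm9, at 98% identity or more over at least 100 bases. The longest was 952 bases in Slc25a36, so these levels are uncertain where reads could be split.

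Barely detected members could lie next to expressed ones. On chromosome X, 18448 bases separate Slc25a43 from Slc25a5 on the same strand, yet Slc25a5 stood at 83.8 CPM per kb in Control and Slc25a43 at 0.0520. On chromosome 17, 2056 bases separate Slc25a23, at 8.19 CPM per kb in Control, from Slc25a41, at 0.0452. The promoter windows of the X-linked pair are printed for comparison, from RefSeq on GRCm38.p6, with matches in capitals as above. The Slc25a5 window is chrX:36795347-36795646 and that of Slc25a43 is chrX:36743382-36743681, both on the plus strand.
Slc25a5: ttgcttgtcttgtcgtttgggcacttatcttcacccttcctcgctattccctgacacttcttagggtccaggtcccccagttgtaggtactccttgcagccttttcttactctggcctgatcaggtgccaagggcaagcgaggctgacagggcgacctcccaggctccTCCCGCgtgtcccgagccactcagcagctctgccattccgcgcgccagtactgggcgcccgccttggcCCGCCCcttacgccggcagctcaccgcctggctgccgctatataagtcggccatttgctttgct
Slc25a43: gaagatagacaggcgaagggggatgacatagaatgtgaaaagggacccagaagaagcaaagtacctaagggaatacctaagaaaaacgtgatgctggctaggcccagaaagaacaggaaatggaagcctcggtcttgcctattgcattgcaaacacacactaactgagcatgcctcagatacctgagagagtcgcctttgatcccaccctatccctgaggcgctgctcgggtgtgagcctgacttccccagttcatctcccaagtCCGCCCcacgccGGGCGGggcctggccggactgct
The abundant Slc25a5 had 1 E2F match (TCCCGC, in 20.0% of windows) and 1 GC box, with a CpG ratio of 0.669. The barely detected Slc25a43 had 2 GC boxes and a CpG ratio of 0.491.

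Over the family, promoters were rich in GC boxes and poor in the exact TATA string TATAAA. RefSeq windows were at hand for 34 members, of which 27 were tested for expression. A GC box was found in 29 of the 34 (85.3%), against 35.9% of 27025 genes. A TATA box (TATAAA) was found in 1 (2.94%), against 14.2% of genes. Only that exact string was searched, so near forms, such as tatataag in the printed Slc25a5 window, were not counted. An ETS match was found in 10 (29.4%, against 15.2%), an E-box in 6 (17.6%, against 7.24%), an E2F match in 9 (26.5%, against 20.1%) and a CCAAT box in 17 of the 34, against 38.0% of genes. The cyclic AMP element (TGACGTCA) was found in 1 (2.94%, against 1.85%) and the NRF1 motif in 0, against 0.981% of genes. The median CpG ratio was 0.754 in the 27 members tested, 0.353 in the 7 not tested and 0.389 over all genes. A ratio of at least 0.6 was found in 16 of the 27 (59.3%), 2 of the 7 (28.6%) and 36.5% of all genes. The genes set beside the members are all RefSeq genes with a window, not matched to the members by expression. These are descriptions of the windows, with no test.

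Relatives of the family under older or other symbols gave no call. Of 8 listed, 5 were tested and 0 passed by edgeR, DESeq2 or limma-voom, with 2 unadjusted p under 0.05. Over all genes tested 21.3% passed by edgeR, so 0 of 5 says little. Mcart1, of the family under another symbol, averaged 43.9 ± 13.1 CPM in Lsd1 KO against 58.0 ± 4.20 CPM in Control (SD, n = 3 each). Its edgeR adjusted p was 0.212. Mtch2, which inserts proteins into the outer membrane, had a log2 fold change of 0.81 ± 0.35 SE (edgeR adjusted p = 0.118) and Mcart6 one of 1.09 ± 0.48 SE (adjusted p = 0.125). The uncoupling protein Ucp2 had 15.6, 4.60 and 14.5 CPM in Lsd1 KO against 6.66, 1.21 and 15.3 CPM in Control. It was lowest in sample 2 of each genotype, the samples lowest in immune markers. Ucp3 had no count, and Ucp1 had 5 counts in all.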

How the data were processed

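RNA was sequenced from 3 Lsd1 KO and 3 Control samples of mouse oocytes. Each deposited file lists, per the labels, unnormalised read counts per gene as the authors obtained them, all whole numbers. The tools named in the submitters' processing notes are CASAVA 1.8.2, TopHat2 2.0.7 and HTSeq 0.5.3p9, with mm9 as the genome; their options and annotation are not stated in the sources used. filterByExpr (minimum count 10) left 12935 genes, which were scaled by TMM and tested two-sided with glmQLFTest of edgeR 4.0.16 (R 4.3.3), with Benjamini-Hochberg adjustment over all of them and a threshold of 0.05. Adjusted p-values are from edgeR where no tool is named. The labels call the samples biological replicates, and p-values measure the spread between them; the common biological coefficient of variation was 27.2%. Log2 CPM of samples of one genotype correlated across genes at 0.955 to 0.972, and no pair was a repeat deposit, with a chi-square per degree of freedom of 19.8 to 43.6. Levels per kilobase used the joined length of all annotated exons of each gene in GENCODE M1 on NCBIM37. Copies were searched with blastn 2.17.0. Alternatives were DESeq2 1.42.0, limma-voom (limma 3.58.1), other scalings, filters and thresholds, a length and GC correction, a replicate block and each library left out. The test was checked on simulated counts.

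Values in every sample are given for members that passed, the most abundant member per length of each role and the nearest member to the threshold on each side; from other lists, passing genes are named, up to 4 by smallest adjusted p. The values of 1 member, which enters the counts, are not reported here. The members and lists were chosen with earlier results of these data known, and genes named outside the rule were chosen after their values were seen.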

Additional observations from a re-analysis of the deposited data

How the results depend on the processing

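Slc25a46 kept its direction and its call under every alternative run. The members' other calls depended on single libraries and settings. Leaving out each library in turn gave 0 to 3 members higher and 1 to 2 lower, and 932 to 1466 of all genes higher and 638 to 1346 lower. Members higher numbered 0 at an adjusted p under 0.01, 0 where a log2 fold change of 1 in either direction was also asked and 0 with the immune marker covariate, which was chosen after seeing the data. All genes higher and lower numbered 676 and 497 at 0.01, 945 and 625 at that fold, and 800 and 635 with the covariate. The replicate block left 1 member higher, since Slc25a25 was lost (0.97, edgeR adjusted p = 0.0536) while Slc25a14 and Slc25a46 stayed (0.0300 and 0.00493). The replicate numbers were not shown to pair the samples: deviations of same-numbered samples correlated at -0.03, 0.11 and -0.02, and Lsd1 KO 1 and 3 each correlated best with a Control sample of another number.

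Among refits of single members, 493 kept direction and call, 10 lost a call, 7 gained one and 23 reversed, none of the last in a member that passed. Reversed log2 fold changes were 0.0062 for Slc25a15 and 0.0039 for Slc25a32 at 10 CPM in 3 libraries; 0.071 for Slc25a15, -0.14 for Slc25a21, -0.91 for Slc25a24, -0.065 for Slc25a31, 0.011 for Slc25a32 and -0.19 for Slc25a37 with the covariate; -0.0026 for Slc25a31 with the length and GC correction; and, for Slc25a37, -0.18 by limma-voom and -0.14 with the replicate block. With each library left out in turn, the values that changed sign ran from -0.23 to 0.66 for Slc25a10, -0.16 to 0.11 for Slc25a15, -0.025 to 0.42 for Slc25a22, -0.28 to 1.25 for Slc25a24, -0.070 to 0.14 for Slc25a31, -0.20 to 0.024 for Slc25a32, -0.66 to 0.17 for Slc25a33 and -0.89 to 0.54 for Slc25a37. The cause was not tested. Depth limits what can be said of members under 10 CPM, whose intervals are wide.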

Other observations

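Genes that work with the carriers were also counted, each against the 21.3% of all genes that passed. Of 16 tested genes for carrier import and for cardiolipin, the lipid the carriers need, 2 rose and none fell (12.5%). Taz, the tafazzin that remodels cardiolipin, had 61.3, 58.0 and 54.2 CPM in Lsd1 KO against 32.3, 31.0 and 32.7 CPM in Control (log2 fold change 0.85 ± 0.17 SE, edgeR adjusted p = 0.00520). All 3 Lsd1 KO samples lay well above all 3 Control samples. Ptpmt1, a phosphatase of cardiolipin synthesis, averaged 4.67 ± 1.65 CPM in Lsd1 KO against 1.28 ± 0.0763 CPM in Control (SD, n = 3 each; log2 fold change 1.86 ± 0.47 SE, edgeR adjusted p = 0.0154). Of 8 tested genes for mitochondrial calcium, 1 rose by edgeR (12.5%), while DESeq2 and limma-voom each called 2 genes. The uniporter pore gene Mcu, listed as Ccdc109a, rose by edgeR and averaged 184 ± 25.4 CPM in Lsd1 KO against 98.3 ± 26.2 CPM in Control (edgeR adjusted p = 0.0102).

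Of 18 tested genes for iron-sulfur cluster and haem synthesis, 2 rose and 1 fell (16.7%). Hscb, a co-chaperone of cluster transfer, averaged 81.6 ± 9.35 CPM in Lsd1 KO against 175 ± 21.9 CPM in Control (SD, n = 3 each; log2 fold change -1.10 ± 0.18 SE, edgeR adjusted p = 0.00162). Uros, of haem synthesis, averaged 12.1 ± 5.06 CPM in Lsd1 KO against 3.78 ± 0.566 CPM in Control (edgeR adjusted p = 0.00760), and the cluster assembly gene Isca1 averaged 374 ± 34.2 CPM in Lsd1 KO against 236 ± 31.5 CPM in Control (edgeR adjusted p = 0.0179). Of 6 tested one-carbon genes, 1 fell (16.7%): Dld, a subunit shared by the glycine cleavage system and the oxoacid dehydrogenases, averaged 197 ± 19.2 CPM in Lsd1 KO against 310 ± 28.5 CPM in Control (log2 fold change -0.66 ± 0.17 SE, edgeR adjusted p = 0.0163). By edgeR, DESeq2 and limma-voom none passed among 5 tested porins and pyruvate carriers, 6 tested enzymes of the malate-aspartate and glycerophosphate shuttles and 5 tested carnitine shuttle genes, with 0, 1 and 1 unadjusted p under 0.05. Granulosa and theca marker sums were higher in all 3 Lsd1 KO libraries than in any Control library. Without Cyp19a1 and Dcn they overlapped, with Nr5a2 and Pdgfra, both higher in Control, still summed. That overlap does not show that the other markers were alike. The part of these markers in the results was not tested.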
